A study of Homo sapiens with 12 samples.

Results

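Doxycycline (Dox), the agent that switches on the receptor transgene, was followed in the line of MDA-MB-453 cells that carries wild-type estrogen receptor alpha (WT). MDA-MB-453 is an established human breast cancer cell line. All 4 libraries came from cells with the same inducible wild-type receptor, and each stands for 1 treatment: untreated, 1 nM estradiol (E2), Dox, and Dox with 1 nM E2. Dox was given at 2 ug/mL (the unit is mistyped in the labels). Cells grew for 2 days in McCoy's 5A medium with 10% FBS, which the labels do not call hormone-depleted, and for another 2 days with or without the agents. Accessible chromatin was mapped by ATAC-seq, an assay whose transposase inserts adapters into DNA that nucleosomes leave free, from 50000 cells a library with 75 bp paired reads. There was 1 library for each treatment and no replicate, so no value below has a spread over repeats of a treatment, and the labels do not say whether the line is 1 clone. The whole series holds 12 libraries, 4 for each of 3 lines. The other lines carry receptors with the substitutions Y537S and K303R.

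The peaks of the 4 WT libraries on chromosomes 1 to 22 and X were merged wherever they overlapped by 1 bp or more, which gave 94318 regions. A region counted as gained when both Dox libraries had a peak in it and neither library without Dox did, and as lost in the reverse case. By this rule 7724 regions were gained and 3722 were lost. No peak means that the peak caller listed none, not that the chromatin was closed. The lowest pileup listed (fragments over a summit) was 3 in the untreated library and 4 in the other 3.

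Estrogen receptor alpha is a nuclear receptor that binds DNA as a dimer once estradiol occupies it, most often at estrogen response elements, and also through partners such as AP-1. Most of its sites in breast cancer cells lie far from gene starts, where the pioneer factors FOXA1 and GATA3 keep chromatin open. Receptor bound there recruits coactivators, and accessible chromatin can follow its binding. Dox switches such transgenes on through a regulator protein derived from bacteria. All 12 libraries came from cells with a receptor transgene, so in these data an effect of Dox itself and an effect of the induced receptor cannot be told apart.

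The label was checked against cell type markers at gene ends (either end of a gene model, since strand was not used). Of 13 luminal epithelial markers such as KRT8, EPCAM and FOXA1, 12 had a peak within 1 kb of a gene end in all 4 WT libraries. Of 13 basal and mesenchymal markers 1 was open in all 4 and 8 in none, and of 13 blood cell markers 0 were open in all 4 and 9 in none. The summed pileup of the luminal markers, each library scaled by its median over shared regions, was 13.6 untreated, 16.0 with E2, 15.9 with Dox and 16.9 with both. The basal sum was 0.714, 3.38, 2.80 and 3.09 in the same order, and the blood sum 0.571, 1.88, 2.60 and 2.46, so that the untreated library was lowest for both.

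Promoter sequence is shown for 4 of the 20 regions at a gene end that are named below, 3 gained (CAPN2, SERPINA1 and CST5) and 1 lost (ZNF23). They were chosen because their promoter holds a match to a motif searched, so the matches are part of the choice and not a result. Each is the run of 250 bases before the gene's start, 5′ to 3′ on the gene's strand, from RefSeq's GRCh38.p14 annotation. Capitals mark matches to the motifs searched that bear on nuclear receptors and their partners. CAPN2, which encodes the calcium-activated protease calpain 2, lies on the plus strand at chr1:223701347-223701596, and its capitals mark 2 matches to the AP-1 motif TGANTCA. SERPINA1, which encodes alpha-1 antitrypsin, lies on the minus strand at chr14:94390636-94390885, with 1 match to GGTCA, the 5-base core of an estrogen response element. CST5, which encodes the protease inhibitor cystatin D, lies on the minus strand at chr20:23879749-23879998, with 1 match to the same core. ZNF23, which encodes a zinc finger protein, lies on the minus strand at chr16:71462248-71462497 and holds the core on the opposite strand.
CAPN2: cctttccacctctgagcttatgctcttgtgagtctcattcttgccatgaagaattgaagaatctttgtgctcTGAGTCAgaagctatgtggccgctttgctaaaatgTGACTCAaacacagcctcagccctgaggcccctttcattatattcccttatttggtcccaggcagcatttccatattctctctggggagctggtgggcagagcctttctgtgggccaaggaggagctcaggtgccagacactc
SERPINA1: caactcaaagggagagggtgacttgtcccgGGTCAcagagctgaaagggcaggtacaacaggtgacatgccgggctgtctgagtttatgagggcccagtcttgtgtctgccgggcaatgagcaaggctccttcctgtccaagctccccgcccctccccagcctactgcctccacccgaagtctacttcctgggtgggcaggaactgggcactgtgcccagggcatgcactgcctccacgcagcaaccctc
CST5: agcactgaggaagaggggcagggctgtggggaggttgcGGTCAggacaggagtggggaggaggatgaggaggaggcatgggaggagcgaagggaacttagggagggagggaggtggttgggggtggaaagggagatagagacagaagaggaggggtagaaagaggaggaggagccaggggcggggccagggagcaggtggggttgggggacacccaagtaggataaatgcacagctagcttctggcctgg
ZNF23: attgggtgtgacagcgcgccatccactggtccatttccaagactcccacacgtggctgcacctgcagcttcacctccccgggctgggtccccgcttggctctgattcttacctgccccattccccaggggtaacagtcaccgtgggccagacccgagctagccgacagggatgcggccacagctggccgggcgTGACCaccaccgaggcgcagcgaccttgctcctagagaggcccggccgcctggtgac

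At these promoters the peaks of the WT libraries divide by Dox because the rule chose the regions so. CAPN2 had no peak untreated or with E2 and a summit pileup of 26 with Dox and 27 with Dox and E2. SERPINA1 had none in the libraries without Dox, 41 with Dox and 20 with both. CST5 had none, none, 17 and 16, while ZNF23 had 7 untreated and 10 with E2 and no peak with Dox. In the Y537S line the CAPN2 region was likewise listed in the Dox libraries only, at 66 and 65, and ZNF23 was listed in all 4 libraries at 11, 11, 10 and 9. The loss at ZNF23 was thus not seen in that line, nor in the K303R line, whose 4 libraries had pileups of 7, 6, 8 and 11 there.

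Gained regions were more numerous than lost ones when all peaks were used. They made up 8.19% of the regions, lost regions 3.95%, and 21960 regions were open in all 4 libraries. The libraries differed in how many peaks they list: 47190 untreated, 78022 with E2, 82091 with Dox and 64476 with Dox and E2. Peaks per library averaged 73283.5 ± 12455.7 with Dox and 62606 ± 21801.5 without (SD, n = 2 libraries each, pooled over the E2 states), with an exact permutation p of 0.667, two-sided, where 2 against 2 cannot give less than 1 in 3. When each list was cut to its 47190 peaks with the largest −log10 p, 60010 regions remained, of which 3674 (6.12%) were gained and 4560 (7.6%) lost. The balance of gained against lost regions thus turned over with list length. It turned over as well when the untreated library was left out of the rule, with 8307 gained and 17633 lost.

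**Figure D1:**
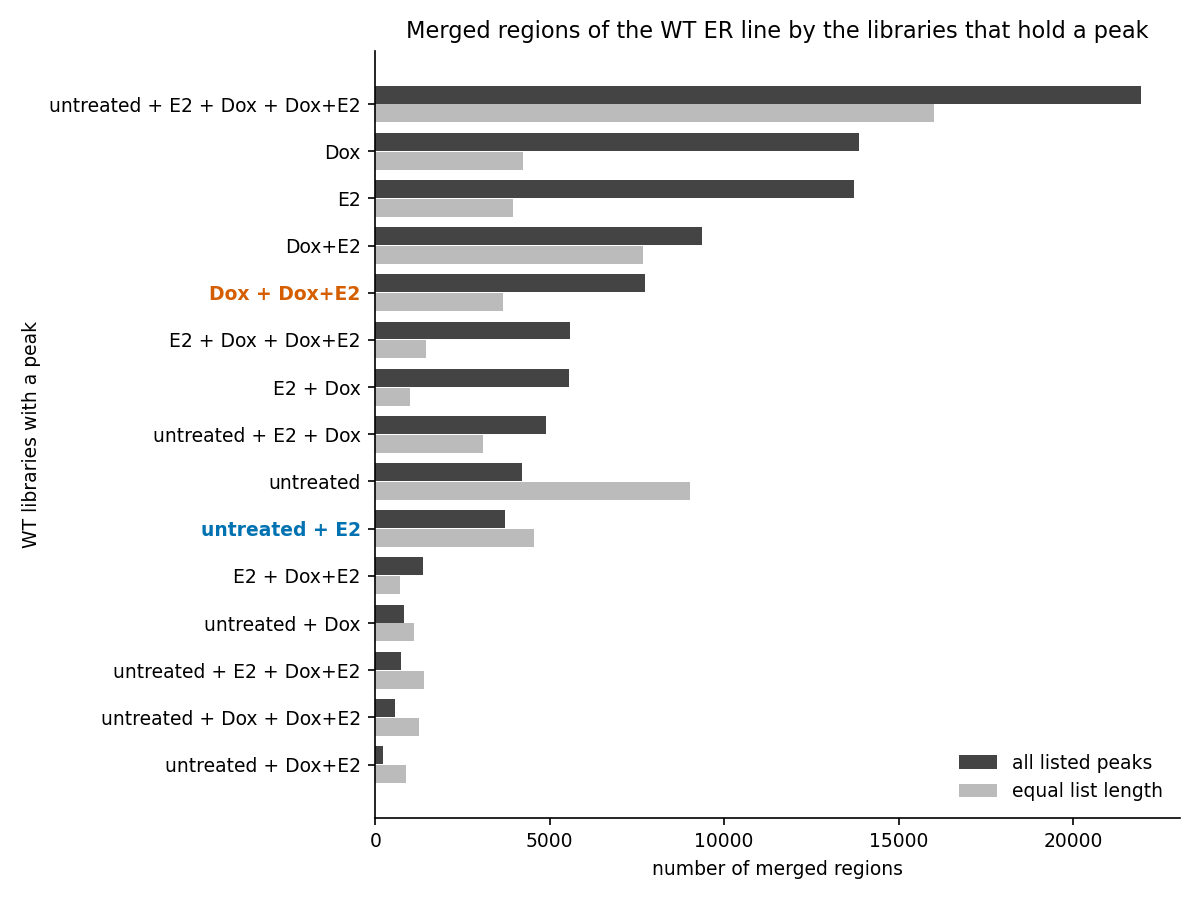
Number of merged regions (horizontal axis) in each pattern of peaks over the 4 WT libraries, with all peaks and with every list cut to 47190 peaks. Gained regions fall from 7724 to 3674 and lost regions rise from 3722 to 4560 when the lists are equal.

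In sum, regions open in a single library outnumbered those open in exactly a pair. With all peaks 13873 regions were open with Dox alone only, 13718 with E2 only, 9362 with Dox and E2 only and 4195 in untreated cells only. At equal length the order turned to 9026 untreated, 7665 Dox and E2, 4235 Dox and 3944 E2. Among pairs with all peaks, E2 with Dox held 5565 regions, E2 with both agents 1365, untreated with Dox 828 and untreated with both agents 222. The gained pattern (7724) was the most frequent pair in that setting.

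Gained regions were stronger than lost ones. Their smaller pileup of the 2 Dox libraries had a median of 6 and a maximum of 39, and 1205 of them (15.6%) reached 10 or more in both. For lost regions the median was 5 and the maximum 16, and 40 (1.08%) reached 10. Pileups of lost regions are bounded by the untreated library, whose median over regions open in all 4 was 7, against 16 with E2, 15 with Dox and 11 with both. At the edge of the rule, 812 gained regions (10.5%) stood at the lowest listed pileup in a Dox library, and 626 lost regions (16.8%) did so in a library without Dox. Just outside it, 6158 regions had a peak in both libraries with Dox plus exactly 1 other, which stood at its lowest listed pileup in 320 of them. On the lost side 5626 regions were open in both libraries without Dox and in exactly 1 Dox library, at its lowest pileup in 305.

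Most regions of both classes lay away from gene ends. The strongest summit was within 1 kb of a gene end in 708 gained regions (9.17%, exact Clopper-Pearson 95% interval 8.53 to 9.83%) and in 209 lost regions (5.62%, 4.90 to 6.40%), against 39.4% of regions open in all 4. At equal list length the shares were 11.2% (10.2 to 12.3%), 7.33% (6.59 to 8.12%) and 45.9%. These intervals cover counting error only. Summits fell inside a gene in 54.8% of gained, 49.8% of lost and 49.5% of regions open in all 4. Median widths were 385.5 bp for gained, 301 bp for lost and 716 bp for regions open in all 4. A region of the same class lay within 20 kb of 42.3% of gained and 16.9% of lost regions. By chromosome, gained regions ran from 6.18% of regions on chromosome 13 to 11.3% on chromosome 22, and lost regions from 1.84% on chromosome 19 to 5.14% on chromosome 13.

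The strongest gained regions, ranked by the smaller −log10 p of the 2 Dox libraries, had no peak in the untreated or E2 library by the rule. The first lay at chr1:203088655-203090194 (hg38), 3.34 kb from MYOG, which encodes the muscle transcription factor myogenin, with pileups of 47 with Dox and 39 with both agents. The second lay 9.69 kb from TRPC6, a cation channel gene, at 52 and 34. Both raw pileups were higher with Dox alone. So was that library's median over regions open in all 4, at 15 against 11 with both agents. Inside WNT9A, which encodes a Wnt ligand, the pileups were 34 and 49. Inside SHANK2, a synaptic scaffold gene, they were 34 and 58. Inside TTC7A they were 33 and 34. All 3 raw pileups were higher with Dox and E2, though nearly equal at TTC7A. A further 4 of the first 10 lay 31.0 kb from CACNG4, a calcium channel subunit gene (38 and 30), 0.465 kb from MAMDC4 (31 and 41), at chr14:98996986-98998101 with no gene within 100 kb (30 and 30), and inside MAPK14, which encodes p38 alpha kinase (34 and 27). Of these 10, 5 were inside a gene and 4 within 100 kb of one.

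Lists of equal length placed a region inside TFRC, the transferrin receptor gene, first. It lies at chr3:196055278-196056335, with pileups of 43 with Dox and 54 with both agents and no peak among the 47190 strongest of either library without Dox. It joined the first 10 under this setting beside regions already named.

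The strongest lost regions were weaker than the strongest gained. At chr2:65310439-65311368 inside SPRED2, which encodes an inhibitor of Ras signalling, the pileup was 16 untreated and 32 with E2, with no peak in either Dox library. LRATD2 had a region 21.7 kb away at 16 and 29, and CUL2, a ubiquitin ligase scaffold gene, had one 77.1 kb away at 15 and 24. In all 10 of the strongest lost regions the raw pileup with E2 was above that of untreated cells, and so was the library's median over shared regions. The others of the 10 were near MRPL14 (12 and 16), THEM6 (12 and 24) and TYRO3, a receptor tyrosine kinase gene (11 and 15), inside NFASC, which encodes the adhesion protein neurofascin (11 and 16), inside IL17REL (11 and 31), and far from any gene on chromosomes 13 (11 and 24) and 16 (11 and 17). At equal length a region inside PARP10 came first, at 22 and 41.

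**Figure D2:**
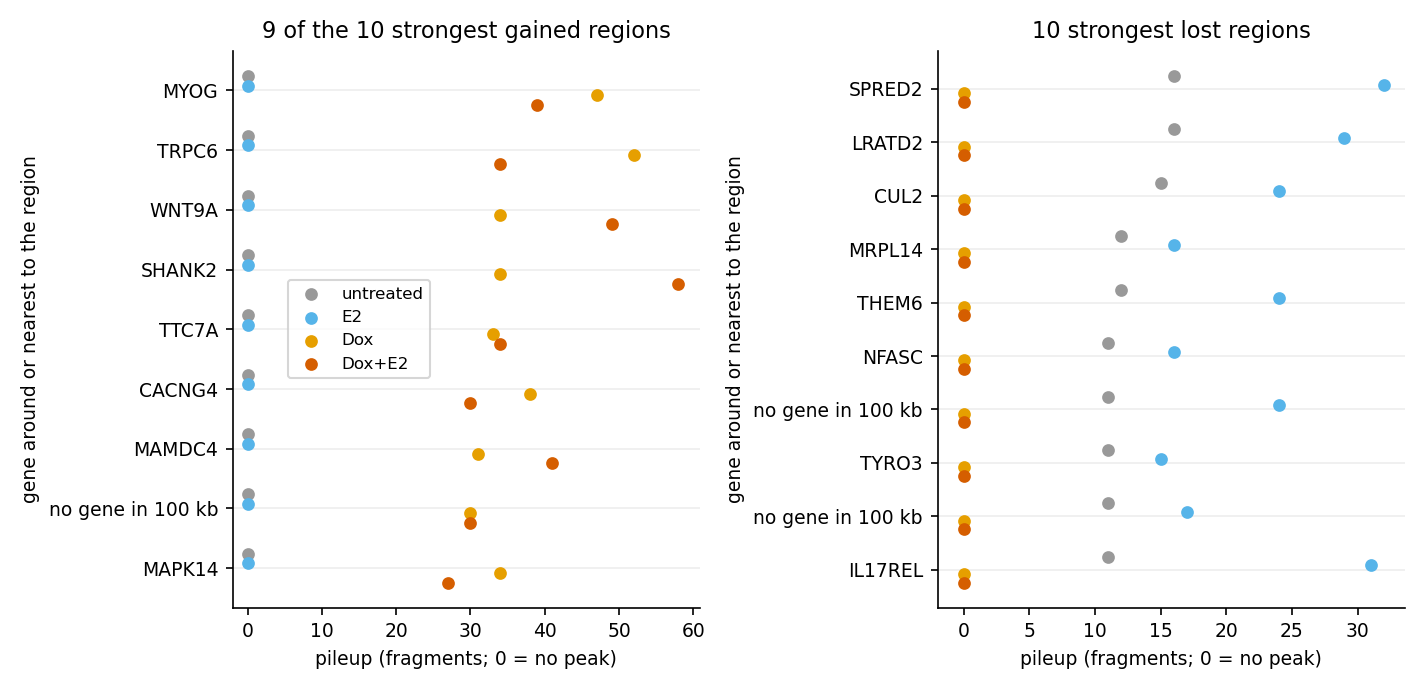
Summit pileup (fragments, horizontal axis, 0 for no peak) in each of the 4 WT libraries, 1 point a library, for 9 of the 10 strongest gained and the 10 strongest lost regions, labelled by gene. Gained regions reach 58, at SHANK2, and lost regions 32, at SPRED2.

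Among the 10 strongest gained regions at a gene end, MAMDC4 and SERPINA1 reached the largest pileup, 41. TNFRSF12A, which encodes the TWEAK receptor, had a summit 0.073 kb from its end at chr16:3022330-3023181, with no peak untreated or with E2 and 22 in each Dox library. In the Y537S line the same region read 7, 14, 65 and 65 (untreated, E2, Dox, both), so it was listed there without Dox as well. KLF17, a transcription factor gene, read 23 and 23 with Dox, MAST2, a kinase gene, 26 and 19, MCPH1, a chromosome condensation gene, 22 and 18, FRMPD1 17 and 17, and MSMB, which encodes a secreted prostate protein, 15 and 14. None of the 10 strongest lost regions at a gene end exceeded 9 untreated: BBOX1, a carnitine synthesis gene, read 9 untreated and 13 with E2, CFAP73 9 and 18, and UGT2B28, which encodes a steroid-conjugating enzyme, 9 and 15. USP2, a deubiquitinase gene, read 8 and 21, and ABCB8, a mitochondrial transporter gene, 8 and 11. COL16A1, NXPE2, MMAB and PRR15L all read 7 untreated, with 10, 9, 12 and 12 with E2.

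Some genes held many gained regions within 50 kb. ITPK1, an inositol kinase gene, had 16 gained of 64 regions, SHANK2 15 of 140, ZNF736 15 of 45 and ZNF254, another zinc finger gene, 14 of 30. On chromosome 17 the windows of SLC38A12, NAT9, CD300LD and CD300H overlap and share regions. Over the stretch chr17:74507243-74889753 (382 kb) they held 164 regions, of which 33 were gained and 0 lost. In the Y537S line 17 of those 33 had the gained pattern as well, and in K303R 8 did. Lost regions gathered less: PDE4B, a cyclic AMP phosphodiesterase gene, had 8 lost of 14 regions and 0 gained, SUSD6 8 of 42, and EXT1, a heparan sulfate synthesis gene, 7 of 32. These counts rise with the number of regions in a window.

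The effect of Dox was then set out by E2 state, each comparison being 1 library against 1. Without E2, 32757 regions (34.7%) had a peak with Dox and none untreated, and 8883 (9.42%) the reverse. With E2, 17871 (18.9%) had a peak with Dox and E2 and none with E2 alone, and 27887 (29.6%) the reverse. At equal list length the counts were 10354 gained and 15866 lost without E2, and 13461 gained and 12594 lost with E2. The direction of the balance was opposite between the settings in both E2 states, and it followed the list lengths: the Dox list was longer than the untreated list by 34901 peaks, and the difference between the Dox and E2 list and the E2 list was -13546.

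The 2 E2 states shared part of their gains. Of the regions gained without E2, 23.6% were also gained with E2 (35.5% at equal length), and of those gained with E2, 43.2% were also gained without it (27.3%). For lost regions the shares were 41.9% and 13.4% with all peaks, and 28.7% and 36.2% at equal length. A further 11160 regions gained without E2 already had a peak with E2 alone. Of these, 5565 had no peak with Dox and E2, that is, they were gained with Dox in one E2 state and lost in the other.

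Raw levels of the members were set side by side by E2 state. Gained regions had a median pileup of 7 with Dox and 8 with Dox and E2, and lost regions 5 untreated and 8 with E2. Over regions open in all 4 the medians were 7 untreated, 16 with E2, 15 with Dox and 11 with both. Members entered through a raw floor of 3 or 4 fragments in these same libraries, so no scaled difference between E2 states is given for them.

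Where every library had a peak, graded differences could be read without the presence rule. Over the 21960 regions open in all 4, the log2 change with Dox had a median of -0.10 and an SD of 0.66 without E2, and a median of 0.16 and an SD of 0.70 with E2. The 2 changes share no library, and across these regions Pearson's r between them was 0.328 as a description, the regions of a library sharing its depth and both Dox libraries sharing a peak-name tag. Both changes were positive in 7054 regions and negative in 5844. The 2 scaled Dox values both lay above the 2 without Dox in 5259 regions (23.9%) and below them in 4554 (20.7%).

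Differences of at least 2-fold between the nearest values of the groups were rare. They were higher with Dox in 133 regions (0.606%) and lower in 295 (1.34%). Without the untreated library the counts turned to 987 higher and 646 lower. The 133 had median pileups of 4 untreated, 9 with E2, 25 with Dox and 21 with both, and the 295 had 12, 27, 9 and 6. A gene end lay within 1 kb of 18.1% of the former and 3.73% of the latter. Both shares were below the 39.4% of all regions open in all 4.

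**Figure D3:**
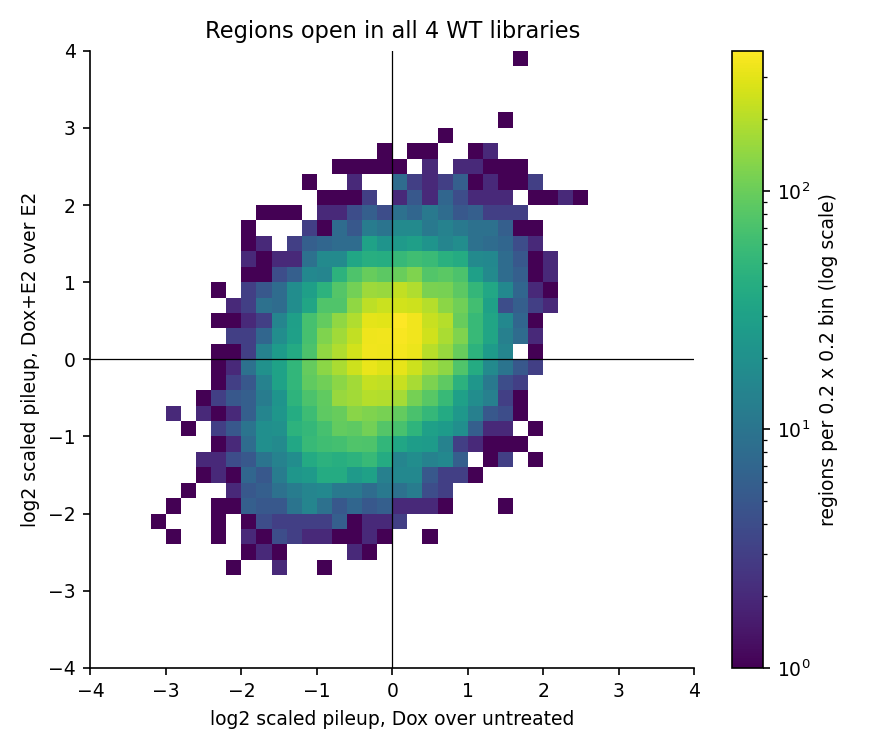
Log2 change of scaled pileup with Dox without E2 (horizontal axis) against that with E2 (vertical axis) over the 21960 regions open in all 4 WT libraries, shown as counts per bin. The cloud has a Pearson's r of 0.328, with 7054 regions higher and 5844 lower in both states.

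The largest rise was inside QSOX1, which encodes a sulfhydryl oxidase, at chr1:180167386-180168543. The pileup was 6 untreated, 13 with E2, 60 with Dox and 40 with both agents. The same region read 11, 8, 87 and 88 in the Y537S line and 6, 6, 29 and 43 in K303R, so the Dox libraries were the higher pair in all 3 lines. Inside GAB2, a docking protein gene of receptor signalling, the WT values were 3, 8, 38 and 23. FUT8, a fucosyltransferase gene, had a region 0.255 kb away at 3, 6, 25 and 19, and inside TPD52L1 the values were 4, 8, 30 and 28. Regions inside AHDC1 (5, 10, 36 and 27), PMEPA1, which encodes an inhibitor of TGF-beta signalling (4, 11, 33 and 32), and RGS1, a regulator of G protein signalling (3, 7, 21 and 18), and 4.52 kb from MYEOV (4, 13, 38 and 40) followed the same order of groups.

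PITPNC1, a phosphatidylinositol transfer protein gene, had a region among the first 10 in each direction. The risen one read 5, 8, 51 and 25 at chr17:67421455-67422540, and the fallen one read 11, 24, 6 and 4 at chr17:67614968-67615597. SP6, a transcription factor gene, had a fallen region 7.36 kb away at 12, 24, 5 and 4, which read 58, 61, 9 and 7 in the Y537S line and 17, 34, 10 and 10 in K303R. Regions inside COG2, a Golgi complex gene (18, 34, 8 and 5), CRIM1 (14, 28, 4 and 5) and ATXN10 (23, 52, 14 and 6) fell alike in the WT line. Here "rose" and "fell" describe libraries that do not overlap, with no test.

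Genes were then described by lists, counting a protein-coding gene when at least 1 gained or lost region lay within 50 kb of its span. Of 18622 such genes with any region, 40.4% had a gained and 23.8% a lost region. At equal list length these backgrounds were 27.3% and 30.4% of 17980 genes. Of 56 estrogen response genes, 41 (73.2%) had a gained region and 11 (19.6%) a lost one, with 6 having both and 10 neither. With the untreated library left out of the rule, 43 had a gained and 50 a lost region. That rule asks for fewer libraries and gave 8307 gained and 17633 lost regions. The share over all genes under it is not given here. At equal length 26 of 55 (47.3%) had a gained and 15 (27.3%) a lost region. Within 20 kb the counts were 36 gained and 3 lost, beside 29.7% and 16% of all genes. A region open only with Dox alone lay within 50 kb of 49 of the 56, beside 62.7% of all genes, and one open only with Dox and E2 near 34, beside 47.8%. A risen region open in all 4 lay near 2 of them (1.55% of all genes) and a fallen one near 3 (2.36%). Genes with many regions are more often hit, and the share of all genes with a gain ran from 22.8% at 1 to 9 regions to 56.8% at 10 to 19 and 79.7% at 20 to 39. In the same bins 6 of 12, 22 of 29 and 12 of 14 estrogen genes had one.

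Secreted, transport and membrane products of the estrogen response genes are given first, in no order of strength. SERPINA1 had 8 gained of 14 regions, the strongest at chr14:94330319-94331432, 45.8 kb away, at 24 with Dox and 27 with both. SLC9A3R1, now named NHERF1, a membrane scaffold gene, had 13 gained of 69, the strongest at 19 and 45. That region lies 30.15 kb from NHERF1 and inside SLC38A12. The NHERF1 window falls in the chromosome 17 stretch described above and shares its gained regions. CA12, a carbonic anhydrase gene, had 6 gained of 29, the strongest inside the gene at 8 and 9. Its pileups in the Y537S line were 54 and 48 with Dox and no peak without. WFS1, which encodes an endoplasmic reticulum protein, had 4 of 14, at 11 and 21. TFF1 and TFF3, which encode secreted trefoil peptides, shared 1 gained region 11.2 kb from TFF1 at 6 and 7, near the lowest pileup listed.

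Regulators and transcription factors of the list follow. SIAH2, a ubiquitin ligase gene, had 3 gained of 16, the strongest 10.8 kb away at chr3:150773525-150774213 with 22 and 16. That region had no peak without Dox in either other line and read 36 and 45 in Y537S and 9 and 10 in K303R with Dox. GREB1, a receptor cofactor and classic target, had 4 of 16, the strongest inside the gene at chr2:11539464-11539831 with 13 and 10 (20 and 16 in Y537S, 4 and 9 in K303R). PGR, the progesterone receptor gene, had 3 of 14, at 8 and 14, MYB, a transcription factor gene, 3 of 14, at 17 and 12, FHL2, a LIM cofactor gene, 6 of 21, at 17 and 12, and RET, a receptor tyrosine kinase gene, 5 of 23, at 13 and 15.

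The strongest lost region near each of the 11 estrogen genes with one had an untreated pileup of 3 to 8. SLC1A4, an amino acid transporter gene, had 2, the strongest 15.8 kb away at 8 untreated and 12 with E2. AGR2 and AGR3, protein disulfide isomerase genes, had 3 each and shared the strongest, at 5 and 8, which had no peak in any of the 8 libraries of the other lines. ELF3, an epithelial transcription factor gene, had a lost region at 5 and 16, which read 90 and 88 without Dox in Y537S with no peak with Dox there. In K303R it read no peak, 42, 57 and 45.

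**Figure D4:**
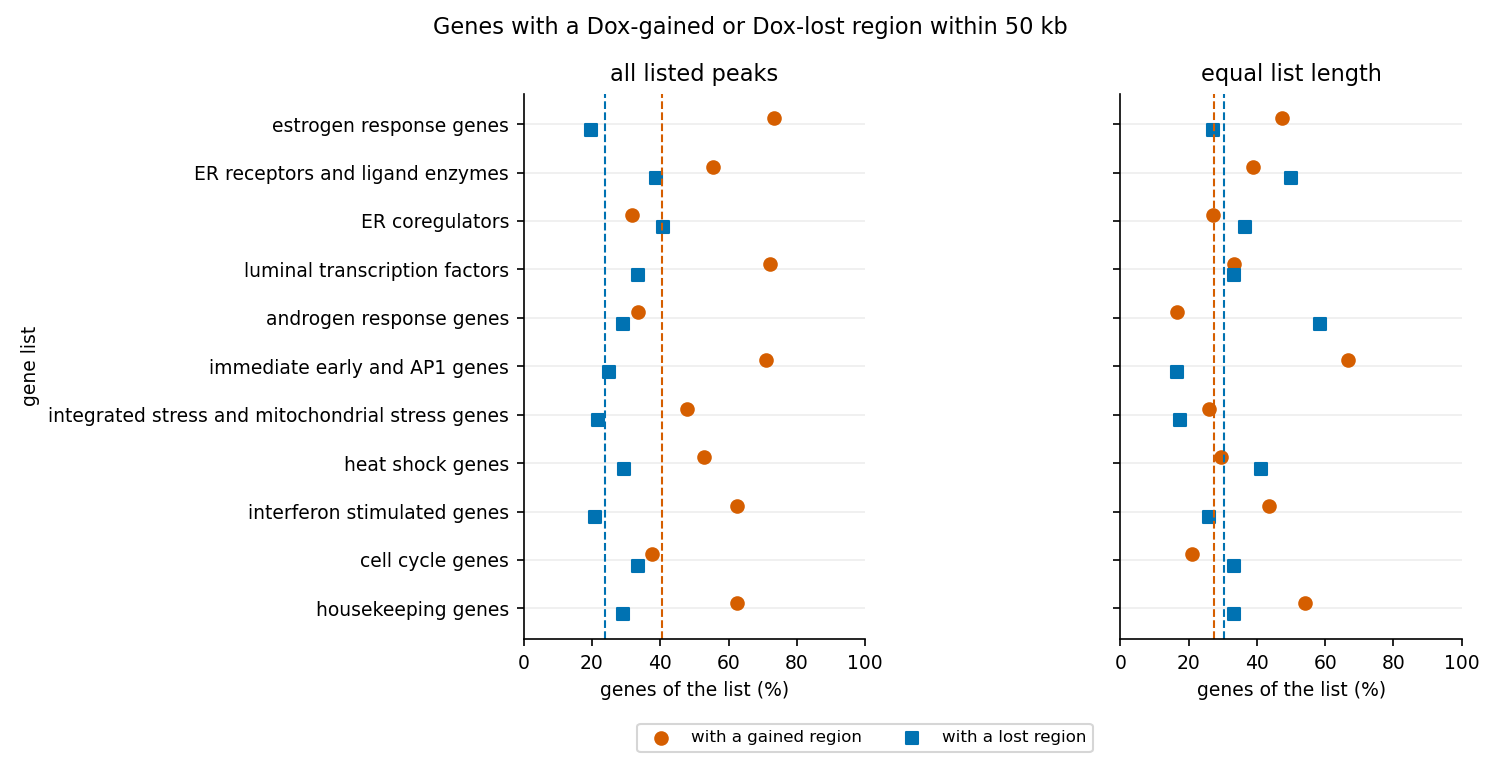
Percent of genes in each list (cell type markers not drawn) with a gained (circles) or lost (squares) region within 50 kb, with dashed vertical lines at the background over all genes, for all peaks and for equal list length. Estrogen response genes stand at 73.2% gained against 40.4% with all peaks and 47.3% against 27.3% at equal length.

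Every WT library listed peaks near the receptor's own gene. Of 12 regions within 50 kb of ESR1, the estrogen receptor alpha gene, 4 were open untreated, 7 with E2, 7 with Dox and 6 with both, and 3 were gained and 1 lost. The strongest gained region lay inside ESR1 at chr6:151807916-151808423, at 10 and 9. Of 18 receptors and steroid enzymes, 10 had a gained and 7 a lost region (7 and 9 at equal length). Over all genes the shares were 40.4% and 23.8% (27.3% and 30.4% at equal length). ESR2, the estrogen receptor beta gene, had 2 gained (13 and 12) and SULT1A1, a sulfotransferase gene, 3 (12 and 12). STS, which encodes steroid sulfatase, had 2 lost, the stronger at 7 and 13, and CYP19A1, the aromatase gene, 1 at 5 and 18.

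Coregulators and lineage factors were counted in the same way. Of 22 coregulators 7 had a gained and 9 a lost region (6 and 8 at equal length). A gained region lay 2.2 kb outside ARID1A, which encodes a chromatin remodeller subunit (13 and 12). Lost regions lay inside NCOA1 (6 and 13) and NCOA3 (4 and 8), both steroid receptor coactivator genes. Of 18 luminal transcription factors 13 had a gained and 6 a lost region, and 6 and 6 at equal length. HES1, a Notch target, had 3 gained (12 and 13), and TFAP2C 1 at 9 and 17. FOXA1 had 1 at 5 and 7 and GATA3 had 0. EHF, an epithelial ETS factor, had 3 lost, the strongest at 6 and 9. Of 24 androgen response genes 8 had a gained and 7 a lost region, and 4 and 14 at equal length. The order turned toward losses over all genes too, from 40.4% gained and 23.8% lost to 27.3% and 30.4%. ZBTB16 and SORD had 2 lost regions each, the stronger at 6 and 12 and at 4 and 10.

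Immediate early and AP-1 genes had a gained region in 17 of 24 with all peaks and in 16 (66.7%) at equal length, and a lost region in 6 and 4 (16.7%). Over all genes 40.4% and 27.3% had a gained region, and 23.8% and 30.4% a lost one. Genes of this list had a median of 17 regions in their windows, beside 8 over all genes. Among all genes with 10 to 19 regions, 56.8% had a gain with all peaks. FOSL2, an AP-1 subunit gene, had 7 gained of 22, the strongest 37.1 kb away at chr2:28355480-28355984 with 17 and 20. BATF, another AP-1 family gene, had 3 of 19 at 17 and 16, and IER3 5 of 27 at 19 and 13. ZFP36, which encodes an RNA decay factor, had 6 of 23 at 13 and 20, and EGR2, a zinc finger factor gene, 2 of 7 at 10 and 19. FOSB, JUND, ATF3 and FOS had 6, 5, 6 and 2 gained regions, and JUN had 0.

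The remaining lists give a yardstick. Stress genes had 11 gained and 5 lost of 23, heat shock genes 9 and 5 of 17, interferon genes 15 and 5 of 24, cell cycle genes 9 and 8 of 24 and housekeeping genes 15 and 7 of 24. Luminal markers had 9 and 4 of 13, basal markers 4 and 2 of 12, and blood markers 3 and 5 of 13. Housekeeping and interferon genes, at 15 of 24, were thus above the 40.4% of all genes too. At equal length 13 of 24 housekeeping genes (54.2%) and 10 of 23 interferon genes (43.5%) had a gained region, beside 27.3% of all genes and 47.3% of the estrogen response genes. The strongest gained region near ATF4, a stress transcription factor gene, lay 48.7 kb outside it (26 with Dox and 18 with both). That near MCM5, a replication helicase gene, lay 40.2 kb outside it (26 and 17). That near ISG20, an interferon-induced nuclease gene, lay 5.2 kb outside it (13 and 17).

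Motif matches in promoters gave little contrast on the receptor's element. Gained regions overlapped 194 of the 22131 RefSeq promoter windows of 300 bases (250 before to 50 after the start), lost regions 76 and regions open in all 4 9763. The element, searched on either strand as GGTCA, then 3 bases of any kind, then TGACC, occurred in 0 gained and 0 lost windows and in 8 of all windows (0.0362%). Its core GGTCA, which the element contains, occurred in 37.1% of gained, 34.2% of lost and 35.6% of all windows. The AP-1 motif TGANTCA was found in 19 gained windows (9.79%), 5 lost windows (6.58%), 3.53% of windows open in all 4, 6.15% of all windows and 8.50% of windows with no WT region. The forkhead motif TGTTTAC was in 3.61% of gained and 2.63% of lost windows, beside 2.85% of all. The GC box GGGCGGGG was in 40.2% of gained and 18.4% of lost windows. Its share was 39.5% of windows open in all 4, 17.0% of windows with no WT region and 29.6% of all. A match is a description of letters and not a bound site, and most gained and lost regions lie outside these windows.

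The names of the peaks carry a tag that differs between the sides compared. Untreated and E2 shared 1 tag, which all 4 K303R libraries carry too, and Dox and Dox with E2 shared another, while all Y537S libraries carry yet another. What the tag stands for is not stated. In the WT line Dox and the tag cannot be told apart. In each of the other lines all 4 libraries share 1 tag, so the regions chosen in the WT line were looked up there, where the rule used no library.

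WT-gained regions were open more often with Dox in both other lines. At equal list length the shares of the 3674 gained regions with a peak in Y537S were 11.1% untreated, 11.7% with E2, 66.6% with Dox and 67.3% with both. In K303R they were 11.2%, 10.4%, 31.0% and 42.2%. The mean difference between Dox and no Dox was 40.7 percentage points, with an exact permutation p of 0.0278 (one-sided, labels exchanged within lines, the smallest that 36 arrangements can give; 0.0278 after Benjamini-Hochberg adjustment over 2 tests). Of the 8 libraries, all 4 with Dox were above all 4 without. With all peaks the difference was 65.0 points, from a mean of 15.1% to 80.1%, with an exact permutation p of 0.0278 (0.0556 after adjustment over the 2 tests made with all peaks).

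WT-lost regions were open less often with Dox at equal length, and the difference depended on the setting. At equal length 49.8% were open in untreated Y537S cells, 49.9% with E2, 9.15% with Dox and 9.83% with both. In K303R the shares were 55.3%, 55.8%, 37.7% and 37.4%. Regions open in all 4 WT libraries were also open less often with Dox in Y537S, at 92.3%, 92.0%, 80.6% and 80.6%. In K303R they were not, at 89.2%, 90.8%, 92.4% and 93.0%. For lost regions the mean difference was -29.1 points with an exact permutation p of 0.0278 (one-sided, and 0.0278 after adjustment over 2 tests). All 4 Dox libraries were below all 4 others. With all peaks it was -7.79 points with an exact permutation p of 0.389 (0.389 after adjustment), and the lines had opposite signs: Y537S gave -39.2 points without E2 and -44.0 with E2, and K303R gave 40.1 and 11.9. The K303R list with Dox holds 97243 peaks and its untreated list 39522.

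**Figure D5:**
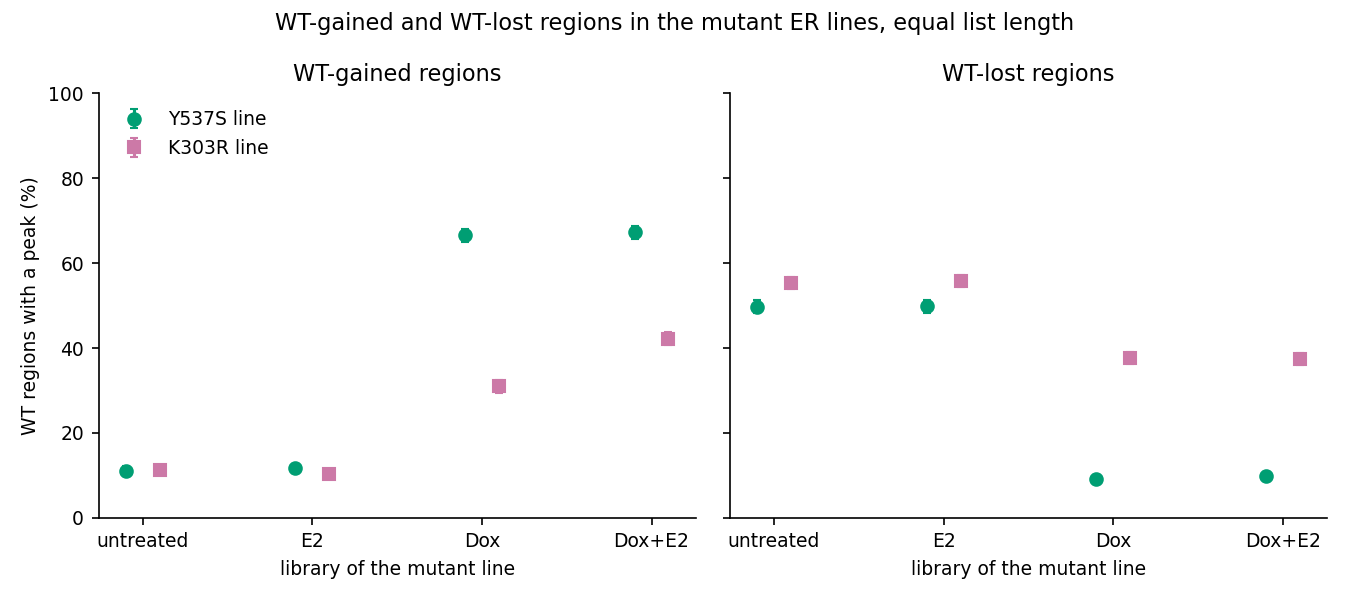
Percent of WT-gained and WT-lost regions with a peak in each of the 8 libraries of the Y537S (circles) and K303R (squares) lines, at equal list length, with exact Clopper-Pearson 95% intervals that cover counting error only. For gained regions the Dox libraries lie between 31.0% and 67.3% and the others between 10.4% and 11.7%. For lost regions the Dox libraries lie between 9.15% and 37.7% and the others between 49.8% and 55.8%.

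Region by region, 5043 of the 7724 gained regions (65.3%) had the full gained pattern in Y537S as well, 3221 (41.7%) had it in K303R and 2251 (29.1%) in all 3 lines, while 114 (1.48%) had no peak in any of the other 8 libraries. At equal length 1938 of 3674 (52.8%) had it in Y537S, 500 (13.6%) in K303R and 350 (9.53%) in all 3. Of the 3722 lost regions 1044 (28.1%) had the lost pattern in Y537S and 12 (0.322%) in K303R, where 420 (11.3%) had the gained pattern. At equal length 1392 of 4560 (30.5%) had the lost pattern in Y537S and 495 (10.9%) in K303R. The share of all merged regions with these patterns in the other lines is not given here. These counts thus have no base rate beside them. The full K303R lists hold 97243 and 102713 peaks with Dox, and 39522 and 61723 without. All 10 of the strongest gained regions had peaks in all 4 Dox libraries of the other lines, and 7 of them had none in the 4 without Dox. All 10 of the strongest lost regions had lower pileups with Dox in Y537S, where 3 had no peak with Dox, and all 10 had peaks in both K303R Dox libraries.

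The lookup was also made for regions open in 1 WT library only. At equal length the regions open only with Dox and E2 in the WT line had a peak in 54.7% of cases in Y537S with Dox and 54.2% with both, beside 6.90% untreated. Those open only with Dox alone had 15.7% and 15.9%, beside 13.2% untreated. In K303R the regions open only with Dox and E2 had 5.81% with Dox and 11.7% with both, and those open only with Dox alone 20.3% and 15.6%.

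The graded set moved in the other lines too. Medians were taken only over regions with a peak in both libraries of a pair, and the other regions were left out. Of the 133 risen regions, 126 without E2 and 128 with E2 entered in Y537S, and 94 and 115 in K303R. Their median log2 change with Dox was 1.18 without E2 and 1.18 with E2 in Y537S, and 0.22 and 0.53 in K303R. Of the 295 fallen regions, 283 and 281 entered in Y537S, at -1.16 and -1.26, and 284 and 294 in K303R, at -0.48 and -0.41. Regions open in all 4 WT libraries had 0.03 and 0.07, and -0.04 and 0.02.

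Other values that move with the tag were measured. With every library cut to 39522 peaks, WT untreated and E2 shared 59.4% of their union, and Dox and Dox with E2 shared 54.8%, both pairs within 1 tag. Across tags, untreated and Dox shared 47.7% and E2 and Dox with E2 44.5%. Between lines, pairs of the same treatment ran from 44.5% to 62.9%. WT and Y537S, always of different tags, shared 56.7% untreated, 62.5% with E2, 44.5% with Dox and 54.8% with both. WT and K303R, within 1 tag, shared 52.45% untreated and 62.9% with E2. Across tags they shared 58.0% with Dox and 51.4% with both. Position in the genome moved with the library: over regions open in all 4, the centred log2 change at gene ends was 0.14 without E2 and 0.19 with E2, and farther away -0.07 and -0.21. In Y537S the values were 0.05 and 0.09, and -0.06 and -0.10. In K303R they were 0.11 and 0.10, and -0.08 and -0.07. The values of these other lines cover only regions with a peak in both libraries of a pair. The change with E2 between the WT Dox libraries, within 1 tag, was 0.11 at gene ends and -0.11 farther away, and that between the WT libraries without Dox was 0.03 and -0.02. A shift between gene ends and other regions was thus seen without a change of Dox as well. The part of the tag in the WT differences was not tested.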

How the data were processed

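The deposited files are peak lists, 1 for each library, in hg38 coordinates and with no reads. The submitters' processing notes name FastQC, Bowtie2, SAMtools, Picard and MACS2; for none of these are settings or versions given in the sources used here. The deposited score equals 10 × −log10 q, cut to a whole number. The fold is the authors' enrichment of the summit over background. The authors' −log10 p and −log10 q belong to each summit. Peaks were called for each library separately.

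The summit pileup was recovered from the deposited fold and −log10 p, since fold is the pileup plus 1 over the library background plus 1. Recovered pileups of the WT libraries were whole to within 0.000296. Sequencing depth is not listed. The backgrounds were 0.143 fragments untreated, 0.296 with E2, 0.361 with Dox and 0.253 with both agents. Longer lists went with higher backgrounds among the 4 WT libraries but not across all 12, and how depth affects the lists was not tested.

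Peaks on chromosomes 1 to 22 and X were merged at 1 bp of overlap with Python 3.11.15, numpy 2.4.6, pandas 2.3.3 and scipy 1.17.1, and figures were drawn with matplotlib 3.10.9. Classification was checked on simulated data. Equal list length kept the peaks with the largest −log10 p, 47190 for each WT library and 39522 for each library in comparisons with the other lines. Distances were taken to the nearer end of protein-coding gene models, because the RefSeq table of starts covers 15811 of 19970 genes and was used only for promoter sequence. Promoter windows were searched for motifs on both strands, including an androgen element and the GATA and CRE motifs.

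Named regions were the 10 of each class with the largest smaller −log10 p over the libraries where they are open, with all peaks, at equal length and at gene ends, and the 10 with the largest ratio between the nearest scaled pileups of the groups. Some list genes were named by the strength of their regions and others were picked from the list. Genes with stronger regions can therefore be unnamed. The region rule, the gene lists and the tests were chosen with earlier results of these data known. The shares in the other lines were tested with an exact permutation test over 36 exchanges of the Dox labels within lines. The alternatives were stricter −log10 q thresholds, other merging, thinned pileups, other windows and scalings, and each library left out in turn. No column of values was left unused. Some items are not reported here.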

Additional observations from a re-analysis of the deposited data

Results flagged for a closer look

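The difference in peaks per WT library between Dox and no Dox had opposite signs in the E2 states. The Dox list was longer than the untreated list by 34901 peaks without E2, and the difference was -13546 with E2. Each state has 1 library against 1, and the difference between the states was not tested.

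The share of WT-lost regions open in the other lines, with all peaks, also had opposite signs. In Y537S both differences between Dox and no Dox were negative, at -39.23 percentage points without E2 and -43.95 with E2. In K303R both were positive, at 40.14 and 11.88 points. The difference between the lines was not tested. At equal list length both lines were negative. In K303R the untreated list holds 39522 peaks and the E2 list 61723, against 97243 with Dox and 102713 with both agents, and the part of list length in the sign was not tested.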

How the results depend on the processing

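Depth limits what can be read: with 1 library for each treatment and pileups that reach 3 or 4 at the lowest, a region without a peak is not shown to lack fragments, and no spread over repeats exists. No paired analysis was possible by replicate number because each treatment has 1 library in each line; the lookup was matched by line instead. The balance of gained against lost regions turned over at equal length, in both E2 states too, and without the untreated library, where risen regions also outnumbered fallen ones and estrogen genes with a loss those with a gain. The pileups of the strongest regions were reread under stricter thresholds, equal length and windows around summits, chosen after seeing the data; these settings cannot change the pileup of a strong peak, so the rereading bears on nothing. In rank, MYOG and SPRED2 were no longer first at equal length. Of 108 values under alternatives, 47 were counted as unchanged. For a count this meant within 1.5-fold, and for a share within the interval of the main value. For a test it meant the same sign and an exact permutation p on the same side of 0.05, whatever the size. With a library left out the rule asks for fewer libraries, and stricter lists hold fewer peaks; for the other changes the cause was not tested.

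Gained regions (7724) numbered 5052 at a −log10 q of 5 or more, 2140 at 10 or more, 3674 at equal length and 3218 after thinning, and 8307 to 22405 with a library left out (8307 without the untreated library, 13821 without E2, 17874 without Dox, 22405 without both agents). Lost regions (3722) numbered 805 at 10 or more, and 4522 to 17633 with a library left out (17633 without the untreated library, 8472 without E2, 8765 without Dox, 4522 without both agents). Gains without E2 (32757) fell to 21355, 13840, 10354 and 11111 at q of 5, q of 10, equal length and thinning. Losses without E2 (8883) were 5871 and 1140 at q of 5 and 10 and 15866 at equal length. Gains with E2 (17871) were 5709 at q of 10, and losses with E2 (27887) were 12978, 12594 and 11465 at q of 10, equal length and thinning.

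The share of gained regions at a gene end (9.17%) was 17.1% within 2500 bp, 16.2% at q of 10, 11.2% at equal length and 9.96 to 18.2% with a library left out. The lost share (5.62%) was 10.9%, then 6.56% and 6.83% at q of 5 and 10, 7.33% at equal length and 7.60 to 9.87%. Risen regions among those open in all 4 (133) numbered 43 scaled by background, 771 at 1.5-fold and 491 to 987 with a library left out; fallen ones (295) numbered 743, 1112 and 646 to 935.

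Estrogen genes with a gain (41) numbered 20 at q of 10, 26 at equal length and 43 to 53 with a library left out. Those with a loss (11) numbered 3 within 20 kb, 17 within 100 kb and 13 to 50. The lookup difference for gained regions (40.7 points) was 55.5 in Y537S alone and 25.8 in K303R alone, each with an exact permutation p of 0.167, the smallest for 6 arrangements, and 21.8 to 33.1 with a WT library left out of the rule. For lost regions (-29.1) it was -7.79 with all peaks (exact permutation p of 0.389), -40.3 and -18.0 in the single lines, and -27.2 to -13.9. Peaks per library differed by 6660 at q of 5 and 4812 at q of 10, each with an exact permutation p of 1.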
